A study of Mus musculus with 9 samples.

Results

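The CC chemokines described here are 8 small secreted ligands, Ccl2, Ccl3, Ccl4, Ccl6, Ccl7, Ccl9, Ccl12 and Ccl24, chosen by name from the 31053 genes of the deposited single-cell tables. Brain cells sorted for CD11b, a surface integrin of myeloid cells, were measured from C57BL/6 mice (C57BL/6J in the methods) aged 5 months in 3 groups. Ctrl mice were naïve, with 1 brain per library. D0 mice ate a diet with PLX5622 at 1200 mg/kg for 14 days, and D2 mice ate the same diet for 14 days and then control diet for 2 days, with 2 brains pooled per library. PLX5622 is an inhibitor of CSF1R, a receptor that microglia need to survive. Each group has 3 libraries. D2-3 was left out of the main values, which leaves 8 of 9 libraries.

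CC chemokines carry 2 adjacent cysteines and bind G protein-coupled receptors on leukocytes, which then move along the ligand gradient. Microglia and macrophages release them within hours of an inflammatory signal. Ccl3 and Ccl4 are macrophage inflammatory proteins that attract activated leukocytes, Ccl2, Ccl7 and Ccl12 attract monocytes through CCR2, Ccl6 and Ccl9 are ligands of CCR1 that many myeloid cells make without stimulation, and Ccl24 is a ligand of CCR3 and attracts eosinophils.

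The adjacent cysteine codons of 7 of the 8 genes are shown because they define the family. Each run holds 30 coding bases, 5′ to 3′ on the gene's own strand, with the 2 cysteine codons in capitals.
Ccl4: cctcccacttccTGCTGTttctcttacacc
Ccl2: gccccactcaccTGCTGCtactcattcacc
Ccl7: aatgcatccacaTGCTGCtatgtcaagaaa
Ccl12: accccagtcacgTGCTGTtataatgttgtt
Ccl6: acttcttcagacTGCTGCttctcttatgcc
Ccl9: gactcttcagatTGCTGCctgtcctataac
Ccl24: atcccctcatctTGCTGCacgtcctttatt

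In build GRCm38, the assembly called mm10 in the notes (annotation GENCODE vM21), the runs lie in exon 3 of Ccl6 (chr11:83589374-83589403, minus strand) and Ccl9 (chr11:83575914-83575943, minus) and in exon 2 of the others. Those shown are Ccl4 (chr11:83663470-83663499, plus), Ccl2 (chr11:82036494-82036523, plus), Ccl7 (chr11:82046526-82046555, plus), Ccl12 (chr11:82102622-82102651, plus) and Ccl24 (chr5:135572653-135572682, minus). Chromosome 11 thus carries 7 of the 8 genes, Ccl2, Ccl7 and Ccl12 in one stretch and Ccl9, Ccl6, Ccl3 and Ccl4 in another. Over their coding sequences, the members grouped together above were 65.3 to 69.6% identical in 5 pairs, with 69.6% for Ccl3 and Ccl4, and the other 23 pairs were 53.8 to 63.2% identical. The longest run shared between transcripts of 2 members was 25 bases, between Ccl6 and Ccl9, and 59 of 2957 runs of 50 bases in Ccl9 also occurred in another gene. The files name the members ENSMUSG00000000982 (Ccl3), ENSMUSG00000018930 (Ccl4), ENSMUSG00000035385 (Ccl2), ENSMUSG00000035373 (Ccl7), ENSMUSG00000035352 (Ccl12), ENSMUSG00000018927 (Ccl6), ENSMUSG00000019122 (Ccl9) and ENSMUSG00000004814 (Ccl24). The antisense genes Gm17268 and E230016K23Rik overlap Ccl2 and Ccl6.

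The libraries held 20257894 to 61230741 UMIs (unique molecular identifiers, 1 per captured RNA molecule), with medians of 4810 to 9243 per kept cell. Of the 28655 cells clustered, 22480 were microglia-like, and the Ctrl libraries gave 2196 to 3552 of them, the D0 libraries 1803 to 3849 and the D2 libraries 1590 and 3053. Library pairs shared 1 to 8 cell barcodes. A pair of libraries stood apart in the genes described here: Ctrl-1 had the lowest share of UMIs from the 8 genes (0.243%, against 0.674 and 0.788% in the other Ctrl libraries), and D2-1 had the highest part of them from Ccl2, Ccl7 and Ccl12 (18.1%, against 4.86 to 8.04% in the other 7). In D2-3, which had 749 microglia-like cells, that part was 53.8%. By their headers, 6 libraries were counted with Cell Ranger 3.0.2, and D2-3, Ctrl-3 and Ctrl-2 with 3.1.0.

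Microglia-like cells carried all 12 of the microglia markers listed, P2ry12 and Tmem119 among them, at 100 CPM or more in each of their clusters. CPM are the UMIs of a gene scaled to a total of 1000000 UMIs for the class in a library, and are not divided by gene length because each UMI counts 1 RNA 3′ end. In microglia-like cells, Ccl4 had the highest level of the 8 genes, 5336 ± 2877 CPM (SD, n = 8 libraries), and Ccl3 followed at 2716 ± 1307. Ccl12 was at 433 ± 424 and Ccl2 at 278 ± 169 CPM, Ccl6 at 153.5 ± 22.1 and Ccl9 at 99.9 ± 31.7 CPM. Ccl24 was lowest with Ccl7, at 16.8 ± 11.4 and 15.8 ± 18.4 CPM. The steps from Ccl3 to Ccl12 and from Ccl9 to Ccl24 exceed both SDs added together, and Ccl4 was above Ccl3 within each library. The other neighbours changed order from library to library and do not differ beyond their spread.

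**Figure D1:**
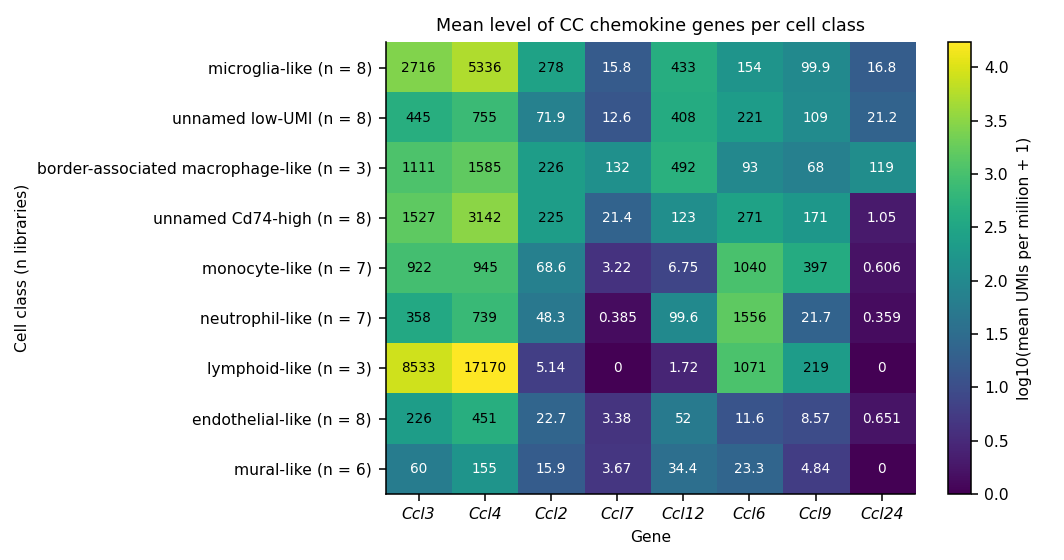
Mean level of the 8 genes (columns) in 9 cell classes (rows), in CPM with the colour on a log10 scale; n is the number of libraries with at least 20 cells of the class. Ccl3 and Ccl4 are brightest in lymphoid-like and microglia-like cells, Ccl6 in neutrophil-like, lymphoid-like and monocyte-like cells (in lymphoid-like cells nearly all in 21 cells), and Ccl24 in border-associated macrophage-like cells. The same 21 of 145 lymphoid-like cells held 3951 of 5169 Ccl3 UMIs and 6348 of 10496 Ccl4 UMIs. The lymphoid-like libraries include no Ctrl, and the macrophage-like ones are all Ctrl.

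The other classes of the sort each held another set of the 8 genes, given here as a description because the classes were drawn from the same cells. Lymphoid-like cells, led by the cytotoxic granule genes Gzma, Nkg7 and Gzmb, had Ccl4 at 17170 ± 7728 CPM (SD, n = 3), Ccl3 at 8533 ± 4312 and Ccl6 at 1071 ± 315. These means were the highest of the classes for Ccl4 and Ccl3, but came from 2 D0 libraries and 1 D2 library, with no Ctrl. Ccl4 was at 21610 CPM in D0 and 8289 in D2, against 7523 and 5176 in microglia-like cells. Ccl3 was at 10910 and 3772, against 3611 and 2728. A small part of the lymphoid-like class carried its values. Of its 145 cells, 21 took another name when the clusters were drawn coarser. They held 574 of the 580 Ccl6 UMIs, 3951 of the 5169 Ccl3 UMIs, 6348 of the 10496 Ccl4 UMIs and 116 of the 136 Ccl9 UMIs. Those 21 cells, picked out after the values were seen, were led by Hdc, the enzyme that makes histamine (5875 CPM, against 33.5 in all other cells), with the transcription factor Gata2 and the protease Mcpt8 among their top 10 genes. The other 124 cells, summed over libraries, had Ccl4 at 6450, Ccl3 at 1894, Ccl9 at 31.1 and Ccl6 at 9.33 CPM. Ccl7 and Ccl24 were at 0 of 83 thinned cells each, which allows a share of cells with a UMI of up to 3.61% and sets no limit on cells that express the gene. Ccl2 was at 5.14 ± 8.91 CPM.

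Ccl6 had its highest level in neutrophil-like cells, 1556 ± 714 CPM (SD, n = 7), with monocyte-like cells (1040 ± 231, n = 7) within that spread, and a lower level of 153.5 ± 22.1 in microglia-like cells. Ccl9 was highest in monocyte-like cells, 397 ± 42.7 CPM, against 21.7 ± 19.3 in neutrophil-like cells. Monocyte-like cells held Ccl2 at 68.6 ± 41.3, Ccl12 at 6.75 ± 5.70 and Ccl7 at 3.22 ± 6.85 CPM.

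Border-associated macrophage-like cells had the highest Ccl24, 119 ± 23.8 CPM (SD, n = 3, all Ctrl), against 8.68 ± 0.728 in microglia-like cells of Ctrl. Their Ccl7 was also highest of the classes, 132 ± 92.0 CPM. Ccl12 was at 404.8 to 563 CPM in them against 118 to 220 in microglia-like cells of Ctrl, so the classes did not overlap, whereas Ccl2 overlapped, at 77.8 to 385 against 68.4 to 244 CPM. Within this class a sub-cluster of 96 cells that also held P2ry12 had Ccl24 at 55.4 ± 13.6 CPM (n = 2), and another of 72 cells had 153 ± 28.9. A sub-cluster measured in 1 library only, with 28 cells, had Ccl12 at 1256 and Ccl7 at 427 CPM. Where the clusters were drawn coarser or finer, the cells given this name had Ccl24 at 39.5 and 33.6 CPM. The coarser cluster held 1695 cells, against 311 in the main naming, with P2ry12 at 692 and Mrc1 at 107 CPM. Its median UMI count was 0.28 of that of its libraries, so its Ccl24 level is not that of the same cells. Fewer than 20 cells of the macrophage-like class remained in each D0 and D2 library, so its chemokines could not be compared between conditions.

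Endothelial-like and mural-like cells, which line and wrap vessels, had Ccl4 at 451 ± 296 (n = 8) and 155 ± 110 CPM (n = 6). Part of the droplet signal in any class can be free RNA, so their shares of positive cells were taken as the background below. The unnamed Cd74-high cells, which mixed monocyte, macrophage and dendritic cell markers, had Ccl2 at 225 ± 125 CPM and Ccl9 at 171 ± 48.7 (n = 8). The unnamed low-UMI cells, with a median UMI count at 0.274 of that of their libraries, had Ccl12 at 408 ± 377 but Ccl4 at only 755 ± 438 CPM. They carried 11 of the 12 microglia markers at 100 CPM or more, and no listed markers of another class were raised. The naming rule left them unnamed because of this low UMI count and because no microglia marker was among their leading genes.

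Across 9 of the 10 microglia-like clusters, which were drawn without chemokine genes, Ccl3, Ccl4 and the CCR2 ligands varied and the CCR1 ligands did so less. Cluster 3, led by Tnf, Dusp2 and Egr1, had the highest Ccl4 (11480 ± 3874 CPM, SD), Ccl3 (5662 ± 1896), Ccl12 (821 ± 434) and Ccl2 (579 ± 226). Clusters 1 and 2, the largest, had Ccl4 at 2240 and 2192 and Ccl2 at 89.0 and 128 CPM. Ccl6, in contrast, lay between 128.5 and 165 CPM in all 9 clusters, and Ccl9 between 60.3 and 120. The clusters led by cell division genes, 10 and 13, had the highest Ccl24 (26.9 and 49.4 CPM) and Ccl7 (41.0 and 37.0), with cluster 5, led by Igf1, at 25.5 for Ccl24. The 10th, with 30 cells and at most 11 in a library, was too small for a level per library. It was led by the interferon-induced genes Ifit2 and Ifit3, and its summed UMIs had Ccl12 at 12590 CPM, above the level of each of the 9 others. The dividing clusters had at least 20 cells in the 5 D0 and D2 libraries and in no Ctrl library.

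**Figure D2:**
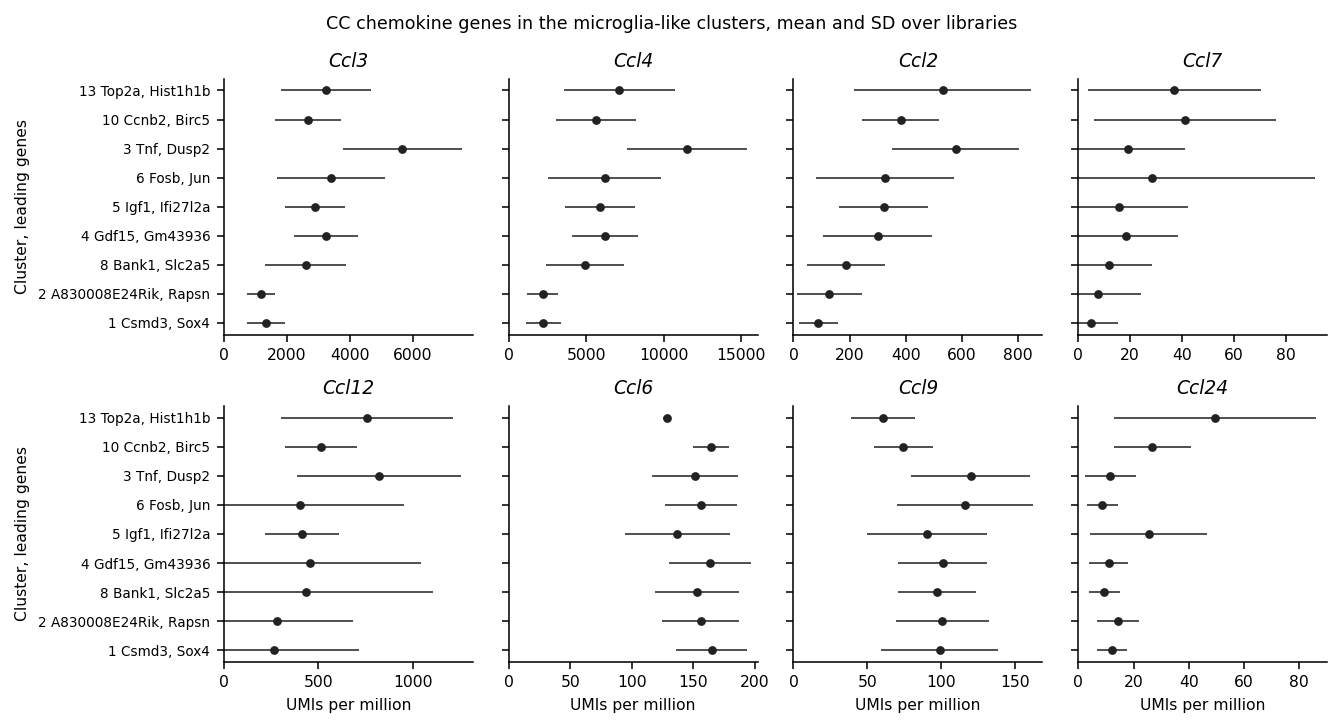
Level of each gene (CPM, horizontal axes) in 9 microglia-like clusters, each named by 2 of its leading genes; points are means over libraries and bars are SD, cut at 0 below. Ccl3 and Ccl4 are highest in cluster 3 and lowest in clusters 1 and 2, while Ccl6 stays between 128.5 and 165 in all 9.

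To compare single cells, each cell was thinned to 2000 UMIs, which left 21203 microglia-like cells, and a cell with at least 1 UMI of a gene was called positive. Ccl4 was found in 65.8 ± 14.4% of microglia-like cells (SD, n = 8 libraries) and Ccl3 in 59.6 ± 14.4%. Ccl12 was found in 24.5 ± 10.9%, Ccl6 in 23.5 ± 3.42%, Ccl9 in 14.9 ± 4.29% and Ccl2 in 13.3 ± 6.52%. Ccl24 and Ccl7 were rare, at 2.95 ± 1.83% and 1.07 ± 1.21%. In endothelial-like cells, with a median of 5137 UMIs before thinning against 7292 in microglia-like cells, the same shares were 20.7% for Ccl4, 13.1% for Ccl3, 2.13% for Ccl12, 1.87% for Ccl6, 1.25% for Ccl9, 1.85% for Ccl2, 0.145% for Ccl24 and 0.243% for Ccl7. The mean share in microglia-like cells was above this background for all 8 genes. Without thinning, the Ccl4 share ranged from 56.7% in Ctrl-1 to 92.8% in D0-2.

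Ccl3 and Ccl4 were found together. Pearson's r of their log-scaled UMIs across cells within a library averaged 0.67, from 0.565 to 0.731 over 8 libraries, and cells with both were 1.26 ± 0.170 times as many as independent shares give. Ccl4 UMIs outnumbered Ccl3 UMIs by 1.72 to 2.3 times in all 9 libraries. Cells of 1 library share its depth and free RNA, and these values are descriptions.

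The CCR2 ligands also met in the same cells. Cells with both Ccl2 and Ccl12 were 1.78 ± 0.304 times the number given by independent shares (r = 0.25), and those with both Ccl2 and Ccl7 were 5 ± 1.76 times, over 169 cells (r = 0.19). Both ratios were over 1 in 8 of 8 libraries. Such a ratio cannot exceed 1 divided by the larger of the 2 shares, so its size cannot be compared between common and rare genes. Between the sets, Ccl2 met Ccl3 and Ccl4 at 1.26 ± 0.121 and 1.26 ± 0.141 times, and Ccl12 met Ccl3 at 1.07 ± 0.0546 times. Ccl6, Ccl9 and Ccl24 showed mean r between -0.03 and 0.05 with every other member, which is close to 0.

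**Figure D3:**
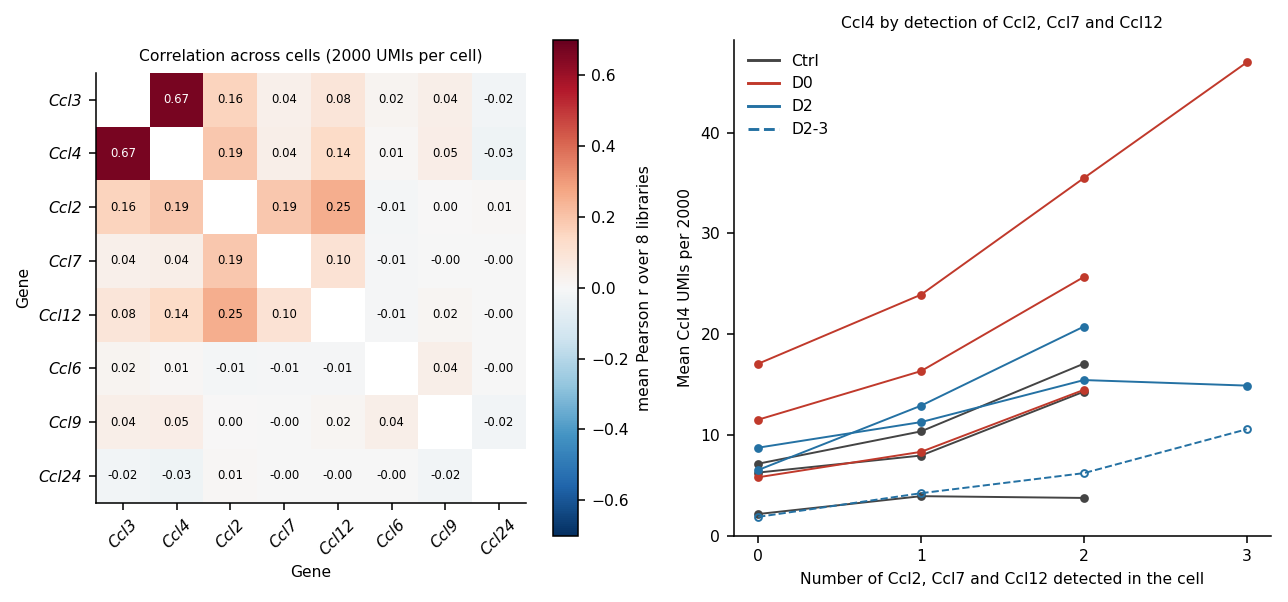
Left, mean Pearson r over 8 libraries of log-scaled UMIs of each pair of genes across microglia-like cells at 2000 UMIs. Right, mean Ccl4 UMIs per cell (vertical axis) in cells with 0 to 3 of Ccl2, Ccl7 and Ccl12 detected, 1 line per library, dashed for D2-3, which is not among the 8; the Ccl3 and Ccl4 pair stands out at 0.67, and Ccl4 rises from 0 to 2 detected genes in all 8 libraries.

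Cells with CCR2 ligands held more Ccl3 and Ccl4. Ccl4 averaged 8.16 ± 4.47 UMIs per 2000 (SD, n = 8) in 14500 cells with none of Ccl2, Ccl7 and Ccl12, 11.9 ± 6.09 in 5285 cells with 1 of them and 18.4 ± 9.32 in 1281 cells with 2 of them. Ccl3 followed the same order at 4.56, 5.95 and 8.73 UMIs. Ccl6 did not, at 0.313, 0.307 and 0.310 UMIs. In Ctrl-1 the Ccl4 means were 2.16, 3.93 and 3.76, where the last 2 values were close and rested on 471 and 37 cells. The 10% of cells with most UMIs of a gene held 34.6 to 65.5% of a library's Ccl4 and 78.7 to 100% of its Ccl2. This value is 100% for any gene found in at most 10% of cells. Ccl2 was found in 6.02 to 23.9% and Ccl4 in 39.8 to 83.8% of cells per library. The contrast thus follows how rarely each gene was found and does not measure concentration apart from that.

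Ccl3 and Ccl4 were the members with the largest levels in every group. Ccl4 was at 1333, 3847 and 4591 CPM in Ctrl-1, Ctrl-2 and Ctrl-3, at 3757, 10620 and 8188 in D0-1, D0-2 and D0-3, and at 5682 and 4670 in D2-1 and D2-2. Ccl3 was at 662, 2241 and 2533 CPM in Ctrl, at 2086, 5191 and 3557 in D0, and at 3082 and 2374 in D2. The D0 libraries overlapped Ctrl for both genes through D0-1, and both D2 libraries were above every Ctrl library for Ccl4 only on this CPM scale.

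**Figure D4:**
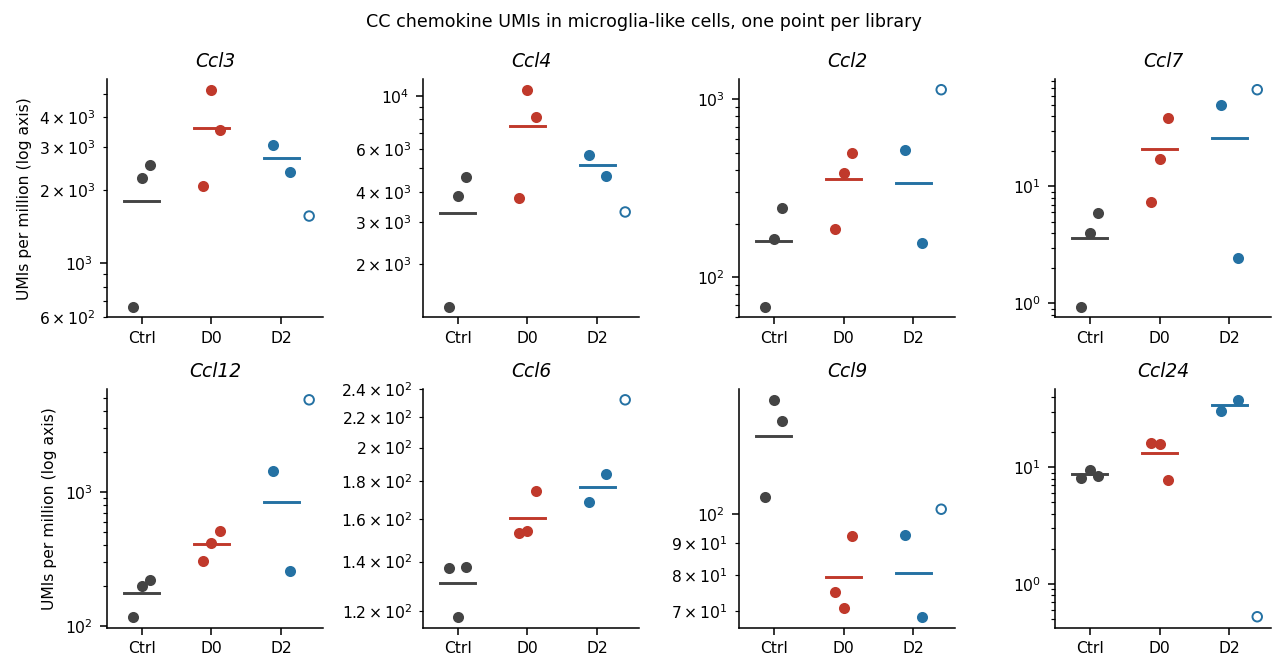
CPM of each gene in microglia-like cells (vertical log axes) in Ctrl, D0 and D2, 1 filled point per library, bars at group means, and an open point for D2-3, which was left out of the means. Ccl6 and Ccl12 of every D0 library lie above every Ctrl library, and Ccl24 of both filled D2 points lies above all others.

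The CCR2 ligands were lowest in Ctrl-1. Ccl2 was at 68.4, 164.5 and 244 CPM in Ctrl, at 186.5, 384 and 501 in D0, and at 518 and 155.5 in D2. Ccl12 was at 118, 199 and 220 CPM in Ctrl, at 305, 419.5 and 511 in D0, and at 1437 and 256 in D2. Ccl7 was at 0.936, 3.97 and 5.98 CPM in Ctrl, at 7.42, 17.1 and 38.3 in D0, and at 49.8 and 2.46 in D2. Ccl12 and Ccl7 of every D0 library were above every Ctrl library, and D2-1 was far above D2-2 for all 3 genes.

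The CCR1 ligands had like levels in Ctrl. Ccl6 was at 137, 118 and 138 CPM in Ctrl, at 153, 154 and 175 in D0, and at 169 and 184 in D2, so every treated library was above every Ctrl library. Ccl9 was at 106.5, 152 and 141 CPM in Ctrl, at 75.2, 70.8 and 92.3 in D0, and at 92.6 and 68.6 in D2, so every treated library was below every Ctrl library on this scale. Ccl24 was at 8.16, 9.52 and 8.37 CPM in Ctrl, at 16.2, 15.7 and 7.71 in D0, and at 30.6 and 37.8 in D2, so D2 was above both other groups while D0 overlapped Ctrl.

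Among all 12425 genes tested, the share with every D0 library above every Ctrl library on this CPM scale was 12.5%, and with every D0 library below, 36.3%. For D2 against Ctrl these shares were 17.9% and 34.9%, and for D2 above D0, 17.3%. Against them, 3 of the 8 members (Ccl6, Ccl7, Ccl12) lay above Ctrl in D0, 4 (Ccl4, Ccl6, Ccl12, Ccl24) lay above Ctrl in D2 and 1 (Ccl24) above D0 in D2. Fold changes below use TMM scaling, which moves them up by 0.211 on the log2 scale for D0 and by 0.111 for D2 against Ctrl. On the scaled values Ccl9 of D0 overlapped Ctrl, and Ccl3 of both D2 libraries lay above Ctrl. The shares of all genes given here are on the CPM scale and need not hold for the scaled values.

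In D0 against Ctrl, Ccl6 rose, with a log2 fold change of 0.51 ± 0.115 (SE; edgeR quasi-likelihood test, Benjamini-Hochberg adjusted p = 0.014, n = 3 and 3), and was the 1 of 8 members called at an adjusted p under 0.05, against 20% of all genes in either direction and 12.4% called higher. For the other 7 the log2 fold changes in this fit were 1.42 ± 0.478 for Ccl4 (adjusted p = 0.065), 1.20 ± 0.483 for Ccl3 (0.11), 1.37 ± 0.556 for Ccl2 (0.11), 1.41 ± 0.513 for Ccl12 (0.082), 2.73 ± 0.982 for Ccl7 (0.079), 0.82 ± 0.263 for Ccl24 (0.054) and -0.54 ± 0.184 for Ccl9 (0.065). All 8 had an unadjusted p under 0.05, against 34.3% of all genes. The median log2 fold change of the members was 1.29, and that of all genes was -0.0538. The 5 members with a log2 fold change over 1 had SEs of 0.478 to 0.982, against 0.115 to 0.263 for the other 3.

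The D0 call depended on single libraries and on the replicate block, which was not part of the main fit. With the replicate number as a block, 4 members rose, against 23.6% of all genes called: Ccl6 (edgeR adjusted p = 0.0089), Ccl4 (0.018), Ccl24 (0.037) and Ccl3 (0.042). Ccl6 was no longer called without Ctrl-2 (adjusted p = 0.066) or without D0-2 (0.054). Without other single libraries 1 to 3 members were called: Ccl9 was added without Ctrl-1 (0.015), Ccl4 without D0-1 (0.023), Ccl24 without D0-3 (0.0034), and Ccl12 and Ccl7 without D2-1 (0.011 and 0.032) or D2-2 (0.012 and 0.032). A term for the Cell Ranger version leaves Ctrl-1 as the one Ctrl library that shares its version with D0, and in that fit Ccl3 (2.75, adjusted p = 0.011) and Ccl4 (2.80, 0.017) were called and Ccl6 was not (0.075), against 11.6% of all genes.

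In D2 against Ctrl, 3 of 8 members rose, against 10.7% of all genes called higher and 18.2% called in either direction (edgeR, adjusted p under 0.05, n = 2 and 3). Ccl24 had a log2 fold change of 2.09 ± 0.287 (adjusted p = 0.001), Ccl12 of 2.32 ± 0.562 (0.019) and Ccl6 of 0.55 ± 0.127 (0.016). Ccl24, the eosinophil attractant, was thus higher by 4.26-fold in D2. The values of the other members were 2.95 ± 1.04 for Ccl7 (edgeR adjusted p = 0.081), 1.16 ± 0.602 for Ccl2 (0.22), 0.76 ± 0.519 for Ccl4 (0.35), 0.67 ± 0.526 for Ccl3 (0.41) and -0.62 ± 0.209 for Ccl9 (0.068).

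**Figure D5:**
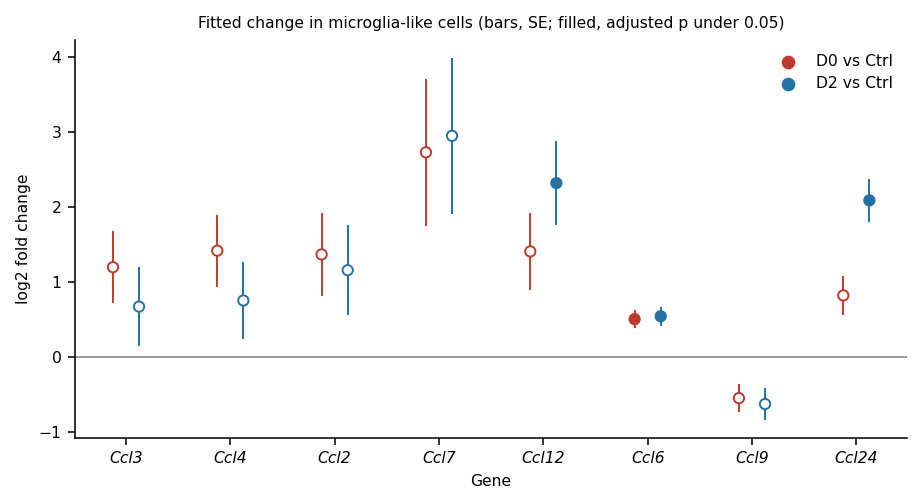
Log2 fold change from edgeR (vertical axis) of the 8 genes in microglia-like cells for D0 and D2 against Ctrl, with bars of 1 SE; filled points have an adjusted p under 0.05. Ccl6 is filled in both comparisons, Ccl12 and Ccl24 only for D2, and Ccl9 is the gene below 0.

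Single libraries decided part of the D2 calls. Without D2-1, the Ccl12 log2 fold change was 0.68 (edgeR adjusted p = 0.30) and that of Ccl7 was -0.40, and without Ctrl-2 the adjusted p of Ccl12 was 0.051. Ccl6 lost its call without Ctrl-2 (0.068) and without D2-2 (0.14), where Ccl7 gained one (0.028), as Ccl9 did without Ctrl-1 (0.013). Ccl24 kept its call when any of the 8 libraries was left out, but not when D2-3 was added (1.57, adjusted p = 0.25), also with the block (1.07, 0.397) or the version term (0.29, 0.865). In the fit with a version term, Ccl24 (2.25, 0.015), Ccl3 (2.22, 0.027) and Ccl4 (2.14, 0.045) were called, and Ccl12 (0.064) and Ccl6 (0.084) were not, against 9.22% of all genes.

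Between D2 and D0 no member was called, and neither was any other of the 12425 genes (0%; edgeR, n = 2 and 3), with 828 genes (6.66%) at an unadjusted p under 0.05 and 25 genes (0.201%) called by DESeq2. Ccl24 had a log2 fold change of 1.27 ± 0.282 and was the 1 member with an unadjusted p under 0.05; its adjusted p in DESeq2 was 0.021. By DESeq2, 4 members were called in D0 and 4 in D2, against 22.9 and 21.4% of all genes, and without the filter on low counts 8 and 6, against 14 and 13.3% (0.194% in D2 against D0). With D2-3 included, 0 members were called in D0 and 2 in D2, against 3.88 and 10.6%. D0 and D2 were both compared with the same Ctrl libraries, so their values against Ctrl are not independent.

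The shares of positive cells were compared over the same libraries. Ccl3 was found in 32.1, 50.8 and 53.3% of cells in Ctrl, in 64.3, 76.6 and 65.5% in D0, and in 74.7 and 59.4% in D2 after thinning. Ccl4 was found in 39.8, 60.0 and 62.1% in Ctrl, 68.5, 83.8 and 77.2% in D0, and 79.0 and 56.3% in D2. Both genes had every D0 library above every Ctrl library, with mean differences of 23.4 and 22.5 percentage points. Ccl12 and Ccl6 were also higher in every D0 library than in Ctrl, by 10.0 and 4.47 points, and Ccl9 was lower, with a difference of -7.43 points, against 9.76% of all genes with every D0 share above and 28.8% with every D0 share below Ctrl. Each of these 5 gave p = 0.1 in a two-sided exact permutation test, the smallest that 3 against 3 libraries allow, and the lowest value adjusted over 24 tests was 0.3692, so no share passed. Ccl24 was found in 1.25, 1.86 and 1.74% of Ctrl cells, in 2.65, 2.91 and 1.70% of D0 cells and in 5.29 and 6.21% of D2 cells. In D2 the shares of Ccl3, Ccl6 and Ccl24 lay above Ctrl in both libraries and that of Ccl9 below, against 16% and 29.9% of all genes.

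Other genes of the pathway in microglia-like cells were taken from fixed lists. Of 9 receptors, 6 were tested, and 3 rose in D0, against 12.4% of all genes called higher. Ccr1, a receptor of Ccl3, Ccl6 and Ccl9, went from 4.29 CPM in Ctrl to 9.04 CPM (log2 fold change 1.28 ± 0.222, edgeR adjusted p = 0.0038). Ccrl2 (1.29 ± 0.394, 0.046) and Ccr7 (4.26 ± 1.13, 0.0275) rose as well. Ccr7 was near the floor and uneven between libraries, at 0.193 ± 0.135 CPM (SD) in Ctrl and 3 ± 2.96 in D0. Ccr2, the receptor of Ccl2 on monocytes, fell from 4.77 CPM in Ctrl to 2.34 in D0 (-0.82 ± 0.231, 0.035). In D2, Ccr1 alone of the 6 was called (0.92 ± 0.249, edgeR adjusted p = 0.031), against 18.2% of all genes. The 4 receptor calls in D0 became 1 without Ctrl-2, Ctrl-3, D0-2 or D0-3 and 2 without Ctrl-1, and the Ccr1 call in D2 was lost without Ctrl-3, D0-2 or D2-1. With D2-3 included no receptor was called in D0, and the D2 call was lost with the block or the version term, with 2000 UMIs per cell, with cells over 20000 UMIs or with all myeloid clusters.

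Of 17 genes of the NF-kappaB list, the inflammatory transcription factors and their known targets, 5 rose in D0, against 12.4% of all genes, and none fell. Il1b had a log2 fold change of 3.07 ± 0.427 (edgeR adjusted p = 0.001), Il1a of 1.59 ± 0.42 (0.027) and Nfkbiz of 1.02 ± 0.314 (0.047). In D2, Il1b rose (2.70 ± 0.444, edgeR adjusted p = 0.0029) and 1 other gene fell, against 18.2% of all genes called in either direction. The number called in D0 was 1 without Ctrl-2, without D0-2 or without D0-3, 1 with D2-3 included, 2 without Ctrl-3 or without the dividing clusters, 3 without Ctrl-1 and 10 without D0-1.

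The immediate-early and stress list, genes that are switched on within minutes of many stimuli, went both ways. Of 18 genes, Ier2 (log2 fold change 0.78 ± 0.183, edgeR adjusted p = 0.0165), Fos (0.55 ± 0.136, 0.021) and Zfp36 rose in D0. The 3 that fell included Jund (-0.56 ± 0.144, 0.024) and Jun (-0.45 ± 0.136, 0.046). Of all genes, 12.4% were called higher and 20% in either direction. The 6 calls became 0 without Ctrl-2, 1 without Ctrl-3 or D0-2, and 3 without D0-3, D2-1 or D2-2. Its summed level overlapped between groups, with 13040 to 18700 CPM in Ctrl, against 11200 to 16640 in D0 and 11510 to 13500 in D2. All cells had been digested at 37 °C before the sort, and the part of that step in the chemokine levels was not tested. Of 17 further CC ligands, 5 passed the filter on low counts and 0 were called in D0 or D2, against 20% and 18.2% of all genes. Ccl5 had the highest mean, 22.4 CPM.

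Sums over several marker lists moved between the groups in microglia-like cells as well. Fscn1, of the dendritic cell list, was at a mean of 197 CPM over sums of library and microglia-like cluster. A list's sum thus need not come from other cells. The dividing cell markers summed to 9.26 to 19.0 CPM in Ctrl, against 564 to 669 in D0 and 802.5 to 868 in D2. Microglia markers summed to 31620 to 36300 CPM in Ctrl, against 22930 to 24990 in D0 and 19570 to 20580 in D2. Without the clusters of dividing cells, Ccl6 was still called in D0 (adjusted p = 0.018) and Ccl24 in D2 (edgeR, 1.82, 0.0064). Neutrophil markers summed to 212 to 289 CPM in Ctrl, against 191.5 to 401 in D0 and 281 to 436 in D2. For monocyte markers the sums were 7.83 to 8.73, 11.9 to 17.4 and 14.3 to 25.3 CPM. Border-associated macrophage markers summed to 221 to 274 CPM in Ctrl, more than the 118 to 152.5 of D0 or the 125.5 to 128 of D2. The part of this in the Ccl24 and Ccl7 differences was not tested. Dendritic cell markers (305 to 403 CPM in Ctrl, 188 to 259 in D0, 164 to 205 in D2), astroglial markers (171 to 187, 83.7 to 111.4 and 90.0 to 104) and lymphoid markers (74.3 to 82.8, 54.8 to 67.3 and 57.4 to 66.4) were also highest in Ctrl with no overlap. Ccl6 was higher in neutrophil-like and monocyte-like cells than in microglia-like ones, and the part of these markers' sources in the Ccl6 difference was not tested.

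Outside the cells named microglia-like, members were called in the unnamed low-UMI cells, 1743 in all. These carried 11 of the 12 microglia markers and may be shallow cells of the same kind, which was not tested. In D0 against Ctrl, Ccl4 (log2 fold change 1.80 ± 0.277, edgeR adjusted p = 0.0011), Ccl3 (1.56 ± 0.28, 0.0053) and Ccl2 (3.48 ± 0.704, 0.0156) rose, against 0.648% of the 5405 genes tested. Ccl4 was at 200, 421 and 425 CPM in Ctrl, at 855, 1549 and 1160 in D0 and at 765 and 666 in D2, so the groups did not overlap. Ccl2 rested on 7, 2 and 4 UMIs in the Ctrl libraries. Without Ctrl-1, Ccl4 alone kept its call (0.0146), and without Ctrl-3 Ccl2 lost its call (0.0805), as Ccl3 did without D0-2 (0.0956). In D2, Ccl3 alone was called (1.35 ± 0.301, 0.033), against 0.907%, and lost its call without Ctrl-1 (0.189) or Ctrl-3 (0.0838), where Ccl12 gained one (0.0406). Ccl4 gained a call there without D0-1 (0.0401), as Ccl2 did without D0-3 (0.00184).

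In neutrophil-like cells, Ccl9 fell in D2 against Ctrl (edgeR adjusted p = 0.0157, n = 2 and 2, against 2.7% of genes called), on 3 UMIs in D2 against 28 in Ctrl. The ratio of their rates was 0.0454, with a 95% exact interval of 0.00883 to 0.147 that covers counting error only. In D0 no member was called there, against 0.0878% of genes. Nor was any member called by edgeR in the other classes tested in D0 or D2 against Ctrl. Their background shares were 2.5 and 3.24% in monocyte-like, 0.0245 and 0.0611% in endothelial-like, 0.0235 and 0.0939% in mural-like and 2.66 and 1.19% in Cd74-high cells. In the Cd74-high cells of D0, Ccl12 had a log2 fold change of -2.69 ± 0.675 (edgeR adjusted p = 0.0511). Ccl12 was called there without Ctrl-1 (0.0484) and without the D2 libraries (0.00922), and Ccl4 without D0-1 (1.01, 0.0498).

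Whether a class differed from microglia-like cells in its change was tested as an interaction, with the library as a block. In Cd74-high cells 6 of 8 members differed in D0, against 5.47% of genes, and the same number in D2, against 5.07%. Ccl12 was at 123, 340 and 131 CPM in Ctrl, at 17.9, 40.6 and 21.8 in D0 and at 288 and 20.6 in D2 in these cells, so D0 lay below Ctrl where microglia-like cells of D0 lay above it. The difference from the microglia-like log2 fold change was -4.07 ± 0.305 (edgeR adjusted p = 8.59e-12), and it stayed called without any single library. Ccl2 differed likewise (-2.33 ± 0.349, 1.64e-05), and Ccl9 the other way (1.23 ± 0.208, 0.000115). The makeup of this mixed class was not held constant, and its part in these values was not tested. In monocyte-like cells Ccl12 also differed in D0 (-2.60 ± 0.613, 0.00403, against 3.42% of genes). It rested there on 24 UMIs in 432 cells of 7 libraries, with means of 13.5 CPM in Ctrl, 3.22 in D0 and 5.29 in D2. In low-UMI cells Ccl2 alone differed in D0 (1.56 ± 0.404, 0.0115, against 1.48%), and not without Ctrl-2, Ctrl-3 or D0-3. None differed there in D2 (0.369%). Ccl12 of monocyte-like cells differed in D2 as well (-3.39 ± 0.752, 0.00137, against 3.83%). In neutrophil-like cells no member differed in D0 (0.858%), and Ccl2 and Ccl9 did in D2 (3.93%), with 2 libraries in each group. Ccl2 was at 3.07 and 233 CPM in these D2 libraries and at 0 and 15.4 in Ctrl, so 1 of the 2 lay within Ctrl. In mural-like cells Ccl3 and Ccl4 differed in D0 (1.06%) and D2 (1.14%), with 2 libraries in each group. They rested there on 72 and 187 UMIs in 280 cells. In endothelial-like cells none differed in D0 (3.26%) and Ccl4 did in D2 (2.9%).

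The genes most like each member were read from 66 sums of library and microglia-like cluster over 5797 genes, as a description. Ccl3 and Ccl4 were most like each other (r = 0.974) and next like Cd83 (0.932 and 0.942) and Osm (0.900 and 0.914). Ccl2 was most like Il1a (0.878), Ccl12 like Nes (0.799) and Ccl2 (0.780), and Ccl7 like Nes (0.738). Ccl6 was most like Cd48 (0.775), Ccl9 like Fscn1 (0.792) and Ccl24 like Hacd4 (0.786).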

How the data were processed

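The deposited tables hold raw UMI counts per gene and cell, which the authors made with Cell Ranger (3.1.0 in the processing notes, 3.0.2 or 3.1.0 in the file headers) on build mm10 from 10x 3′ libraries of live CD11b+ cells sorted after digestion at 37 °C, with the cerebellum removed. Kept cells had 500 to 20000 UMIs, 200 genes or more and mitochondrial UMIs of up to 10%. They were clustered on 3000 variable genes without Ccl and Cxcl genes (10 components, 20 neighbours, Leiden resolution 0.6, leidenalg 0.10.2), and clusters were named from fixed marker lists by rules set after the clusters were seen. Doublets were scored with Scrublet (scanpy 1.11.5) and removed only as an alternative (the top 4%). D2-3 was left out, as in the study, and placed by 30 nearest neighbours.

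UMIs were summed per library and class (at least 20 cells) and tested with edgeR 4.0.16 in 1 fit of 8 libraries with TMM scaling, filterByExpr and Benjamini-Hochberg adjustment. Standard errors were derived from the F statistic. The script was tested on simulated data first. Ctrl and D0 libraries with the same replicate number gave r = 0.403, 0.228 and 0.178 in their deviations, whereas those of Ctrl and D2 gave 0.0575 and 0.0974. Ctrl and D0 libraries with different numbers gave -0.371 to 0.282, so pairs were not established. The main fit had no pairing, and the replicate number entered as a block only as an alternative. The named genes are all 8 members in every comparison and the called genes of fixed lists of receptors, other ligands, NF-kappaB and immediate-early genes. Members and lists were chosen with earlier results of these data known. The interaction of class and condition, with the library as a block, was tested for 6 classes after the data were seen, and could not be fitted for macrophage-like cells, with fewer than 20 cells in each D0 and D2 library. Intervals cover counting error only. Gene positions come from the GENCODE vM21 annotation. The codon run of Ccl3 is not reported here.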

Additional observations from a re-analysis of the deposited data

Results flagged for a closer look

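D2-3, which entered none of the main comparisons, held more of 4 members in its 749 microglia-like cells than the highest Ctrl library. Ccl12 was at 4850 CPM against 220, Ccl7 at 67.3 against 5.98, Ccl2 at 1129 against 244, and Ccl6 at 232 against 138. After thinning, 90.5% of its cells held Ccl12 (95% exact binomial interval 88.0 to 92.6%) and 60.2% held Ccl2 (56.4 to 64.0%). Ccl24, at 0.524 CPM, was below every other library, and its microglia markers summed to 9470 CPM.

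The change against Ctrl differed between another class and microglia-like cells for several members, by an interaction test in edgeR on the log2 scale (class minus microglia-like, adjusted p under 0.05). In Cd74-high cells the differences in D0 were -4.07 for Ccl12, -3.12 for Ccl7, -2.33 for Ccl2, -1.01 for Ccl3, -0.895 for Ccl4 and 1.23 for Ccl9. In D2 they were -2.99 for Ccl12, -2.36 for Ccl7, -2.73 for Ccl2, -0.929 for Ccl3, -0.877 for Ccl4 and 0.958 for Ccl9. Ccl2 and Ccl12 stayed called in both when any single library was left out, as Ccl9 and Ccl3 did in D0. Ccl4 and Ccl7 lost their call in D0 and D2 without Ctrl-1, as Ccl3 did in D2, and Ccl7 in both and Ccl4 in D2 without Ctrl-2. Ccl9 lost it in D2 without Ctrl-3.

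In monocyte-like cells Ccl12 differed by -2.60 in D0 and -3.39 in D2, on 24 UMIs in 432 cells. In neutrophil-like cells of D2, Ccl2 differed by 2.09 and Ccl9 by -3.18, with 2 libraries each in Ctrl and D2. Ccl2 was at 3.07 and 233 CPM in D2 and at 0 and 15.4 in Ctrl. In low-UMI cells Ccl2 differed by 1.56 in D0. In mural-like cells Ccl3 and Ccl4 differed by -2.29 and -2.10 in D0 and by -3.60 and -2.03 in D2. These rested on 72 and 187 UMIs in 280 cells, with 2 libraries in each group. In endothelial-like cells Ccl4 differed by -1.67 in D2, and not without Ctrl-1 or Ctrl-3. Shares of positive cells in these vessel classes were taken as the background of free RNA.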

How the results depend on the processing

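Few cells held a UMI of Ccl7 or Ccl24, and every D2 value rests on 2 libraries. With the main settings 1 member was called in D0, 3 in D2 and 0 in D2 against D0. In D0 the count was 2 with RLE scaling, the version term, cells thinned to 2000 UMIs or cells over 20000 UMIs included, 3 with only the 2 groups compared, 4 with DESeq2 or the replicate block, 8 without the filter on low counts, and 0 with D2-3 included, alone or with the block. It was 0 to 3 when single libraries were left out. In D2 it was 6 without the filter, 5 at 2000 UMIs per cell and 1 to 4 when single libraries were left out, and the block left it at 3. Between D2 and D0 it was 1 with DESeq2 or without the filter. No share of all genes called is given for RLE scaling, thinned cells, cells over 20000 UMIs or only the 2 groups compared. Member counts in those fits thus cannot be set against all genes. All genes called in D0 numbered 475 with D2-3 included, 1305 without the dividing clusters and 1221 to 2578 without single libraries, against 2484. The cause was not tested.

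On the log2 scale, Ccl24 was -0.571 in D0 and 0.29 in D2 with D2-3 and the version term, against 0.82 and 2.09. Between D2 and D0, Ccl2 was 0.312 with the block, 0.86 with D2-3 and 0.708 with both, against -0.21 in the main fit. Ccl9 was 0.0201, 0.188 and 0.173, against -0.0792. The block thus turned the direction of both genes, as did adding D2-3. Without single libraries, Ccl7 in D2 was -0.399 to 3.85, and the D2 to D0 differences ran from -1.27 to 0.395 for Ccl2, -0.0578 to 0.142 for Ccl6, -3.15 to 1.12 for Ccl7, -0.267 to 0.0936 for Ccl9 and -0.748 to 1.67 for Ccl12.

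Shares of positive cells in D2 against D0 changed direction, in percentage points, for Ccl12 (-7.53) and Ccl6 (-3.34) without thinning, for Ccl2 (0.194) and Ccl9 (0.458) at 2 or more UMIs, for Ccl2 without dividing clusters (1.41) and for Ccl2 (14.5) and Ccl9 (1.10) with D2-3. Without single libraries these differences were -13.6 to 17.4 for Ccl12, -8.51 to 7.82 for Ccl2, -9.41 to 5.92 for Ccl3, -20.2 to 2.57 for Ccl4, -0.631 to 2.59 for Ccl7 and -1.81 to 1.36 for Ccl9, and against Ctrl -3.58 to 27.4 for Ccl12 and -1.40 to 14.9 for Ccl2. In other classes, members called numbered 0 to 1 in Cd74-high and 1 to 3 in low-UMI cells of D0, and 0 to 2 in low-UMI cells of D2.

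At 2 or more UMIs per gene the ratios of joint detection were 1.54 for Ccl3 and Ccl4, 1.48 for Ccl2 and Ccl3, 1.45 for Ccl2 and Ccl4, 1.17 for Ccl3 and Ccl12, 1.28 for Ccl4 and Ccl12, 9.62 for Ccl2 and Ccl7, 3.6 for Ccl2 and Ccl12, 4.13 for Ccl7 and Ccl12 and 1.54 for Ccl6 and Ccl9. At 1000 UMIs they were 1.13 for Ccl3 and Ccl12 and 1.30 for Ccl6 and Ccl9, whose r was 0.127 without thinning. Fewer cells are positive at 2 or more UMIs, which raises the highest value a ratio can take.

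With D2-3, Ccl12 of microglia-like cells was at 924 CPM, Ccl7 and Ccl12 of monocyte-like cells at 10.4 and 19.0, Ccl7 of neutrophil-like cells at 1.46, and Ccl9 and Ccl12 of lymphoid-like cells at 346 and 8.42. At Leiden resolution 0.3 the cluster named border-associated macrophage-like held 1695 cells, with P2ry12 at 692 CPM. It had Ccl2 at 70.5, Ccl3 at 366, Ccl4 at 628, Ccl6 at 223, Ccl7 at 17.5, Ccl9 at 100 and Ccl24 at 39.5 CPM. Lymphoid-like cells at that resolution had Ccl3 at 2920, Ccl6 at 3.89 and Ccl9 at 15.5. At resolution 1.0 the macrophage-like cells had Ccl3 at 1800, Ccl4 at 3580, Ccl6 at 153, Ccl12 at 1160 and Ccl24 at 33.6 CPM, and monocyte-like cells had Ccl2 at 168, Ccl4 at 2010, Ccl6 at 546, Ccl7 at 11.9, Ccl9 at 277 and Ccl12 at 25.5. The joint use of D2-3 with the version term or block, leaving out libraries in other classes, and the interaction tests were chosen after seeing the data.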
